A study of Mus musculus with 6 samples.

Results

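Interleukins and the chains of their receptors were examined in type II alveolar epithelial cells, the lung cells that make surfactant, taken from mice bred to delete Gpr116, an adhesion receptor, in those cells, and from controls. The set held every gene whose symbol starts with Il and a digit and that had a probe set with 1 gene symbol in the platform annotation. Il6, Il6ra, Il6st, Il33, Il34, Il1rl1, Il4ra and Il13ra1 were set aside. That gave 69 of the 19938 genes tested. They were grouped as 32 ligands, 31 receptor chains, 3 antagonists or decoys of the interleukin-1 family, Il11, Il16 and the antisense transcript Il1bos. The ligand group includes Il1f5, which encodes the interleukin-36 receptor antagonist. Chains such as Il1r1, Il2rg and Il11ra1 were not analysed here.

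The study measured 6 pools of cells, 3 in each group, on 1 Affymetrix array per pool. Every pool held the cells of 3 mice aged 8 weeks, isolated with collagenase and differential plating and lysed 2 hours later. Mice of both groups carried SP-C-rtTA and (tetO)7CMV-Cre. In this pair the surfactant protein C promoter drives a transactivator that turns on Cre recombinase in the presence of doxycycline. The knockout mice also carried 2 Gpr116flx alleles, so the groups differed in those alleles and not in the transgenes. Values are log2 signals: a difference of 1 is a doubling. The Gpr116 (Adgrf5) probe set showed no loss in the labelled knockout pools and stood higher there (11.78 to 11.89, against 11.49 to 11.53 on the controls). The difference was 0.34 ± 0.05 (SE, limma adjusted p = 0.0119). Whether that probe set covers the deleted exons is unknown here, so it cannot check the genotype. Every direction below is that of the labels. Array titles carry further numbers that no label explains, and the groups never share the first of them. A batch that the first number might mark cannot be told apart from the groups. By Xist and 3 Y-linked genes, knockout 2 and control 1 were pools of male mice and the other 4 of female mice.

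Interleukins are small secreted proteins through which leukocytes, epithelia and stroma signal to each other. Most act on receptors of 2 or more chains. Those of the interleukin-1 family signal through the adaptor Myd88, those of the interleukin-17 family through Act1 (Traf3ip2), and most others through Janus kinases and STAT factors. Alveolar and airway epithelia are known chiefly as receivers of interleukin-17 and interleukin-22, which drive antimicrobial and repair genes, and as sources of a few alarm signals.

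Few interleukin genes passed the threshold. Of the 69 genes 0 were higher and 2 were lower on the arrays labelled knockout at an adjusted p under 0.05 by limma, and 67 did not pass. These p values measure the spread between pools, not between single mice. Over all genes tested 3.36% were called higher and 5.13% lower, while 2.90% of the interleukin genes were lower. In either direction 2.90% of the interleukin genes were called, against 8.49% of all genes. At an unadjusted p under 0.05 by limma, 2 were higher and 6 lower, against 11.5% and 10.6% of all genes. The 2 that fell were receptor chains: Il22ra1, the ligand-binding chain for interleukin-22, and Il18r1, the ligand-binding chain for interleukin-18. The lower count was 1 under a replicate block, 3 without knockout 1, 4 without knockout 2, 1 without knockout 3 and 0 by limma without any 1 control array, where 4 interleukin genes had an unadjusted p under 0.05. The median difference of the 69 genes was -0.01 on log2 with quartiles of -0.08 and 0.06, and that of all genes tested was 0.0033.

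Most members, like most genes tested, had narrow intervals. The 95% interval of the difference lay within 0.5 on log2 either side of 0 for 65 of the 69 genes. That was 94.2%, against 85.3% of all genes tested. The other 4 members were Il22ra1, Il1rl2, Il17d and Il2ra. For a probe set that reports little transcript such an interval bounds its signal and not the transcript. The groups did not overlap in 13 of the 69 genes, 3 of them higher and 10 lower, or 18.8%, against 27.6% of all genes.

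**Figure D1:**
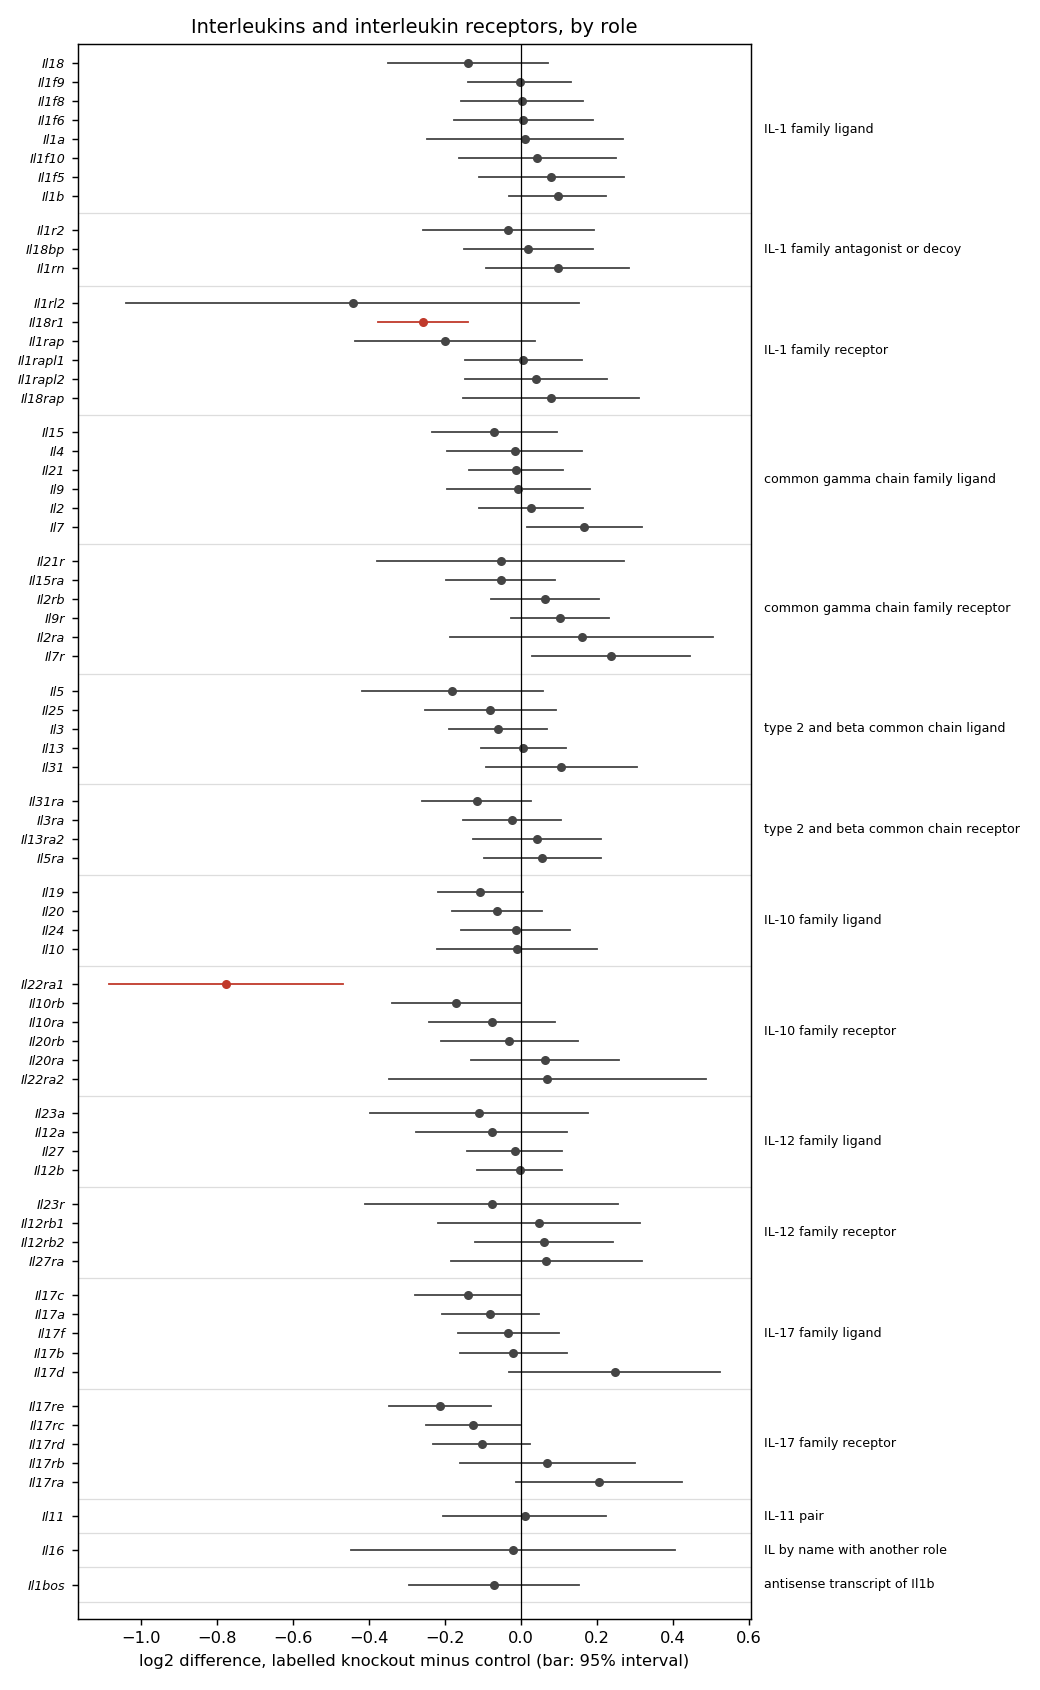
Log2 difference (labelled knockout minus control, 3 arrays each) of the 69 interleukin genes with 95% intervals, grouped by role; the 2 genes called by limma are red. Il22ra1 at -0.78 and Il18r1 at -0.26 are the only 2 called. The intervals of 65 genes, 94.2%, lie within 0.5 of 0, against 85.3% of all genes tested.

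The sequences just upstream of the 2 genes that fell are shown because these are the only called members and both went the same way. They are the 250 bases before the most upstream start in RefSeq (GRCm38.p6), 5′ to 3′ on the plus strand, at chr4:135727909-135728158 for Il22ra1 and chr1:40465302-40465551 for Il18r1. Capitals mark matches, on either strand, to 2 motifs of factors that act in cytokine signalling, chosen after the values were seen. The motifs are a STAT element TTCNNNGAA and an AP-1-like element TGANTCA. N is any base, so the second is looser than an AP-1 site with C or G at its centre.
Il22ra1: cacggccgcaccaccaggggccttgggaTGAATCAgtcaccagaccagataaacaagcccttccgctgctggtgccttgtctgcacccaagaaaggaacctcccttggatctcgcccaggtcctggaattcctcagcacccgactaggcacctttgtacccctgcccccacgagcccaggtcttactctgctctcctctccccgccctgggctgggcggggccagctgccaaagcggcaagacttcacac
Il18r1: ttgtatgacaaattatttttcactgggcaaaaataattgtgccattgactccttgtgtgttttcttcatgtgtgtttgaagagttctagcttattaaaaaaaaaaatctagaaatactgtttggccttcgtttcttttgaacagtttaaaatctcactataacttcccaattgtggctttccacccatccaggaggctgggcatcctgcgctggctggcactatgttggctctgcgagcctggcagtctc
The Il22ra1 window held 1 match to the AP-1-like element, TGAATCA, with A at its centre. The Il18r1 window held neither motif. Of all 32851 such windows 7.02% held the STAT element and 6.75% the AP-1-like element. Of the 64 windows of the 53 interleukin genes found in that table, some of which overlap, 14.1% and 20.3% did. A match describes letters and not a bound site, and its absence covers these windows alone.

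Il22ra1 changed most among the interleukin genes. On knockout 1, 2 and 3 it read 7.08, 6.70 and 6.56, and on the controls 7.62, 7.59 and 7.46. All 3 control values stood above all 3 values of the other group, and knockout 1 was the nearest to them. The log2 difference was -0.78 ± 0.13 (SE, n = 3 per group; limma adjusted p = 0.0155), or 1.71-fold lower. A second probe set of the gene read 6.88, 6.61 and 6.65 against 7.25, 6.98 and 7.12, a difference of -0.40 ± 0.10 that did not pass in a fit of all probe sets (limma adjusted p = 0.103). Both probe sets thus stood lower on every array labelled knockout. The Il22ra1 call was kept without any 1 array labelled knockout and was lost without control 1 (limma adjusted p = 0.0721), control 2 (0.0742) or control 3 (0.0637), and in the 4 female pools (0.125; difference -0.705 ± 0.183).

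Il22ra1 pairs with Il10rb, a chain shared with the receptors for interleukin-10 and lambda interferons. Il10rb read 10.22, 10.09 and 9.98 against 10.31, 10.26 and 10.23 on the control arrays. It was lower on each array labelled knockout, with a difference of -0.17 ± 0.07 that did not pass (limma adjusted p = 0.221). The remaining 4 receptor chains of this family, among them the soluble interleukin-22 decoy Il22ra2 and the ligand-binding chain of interleukin-10, Il10ra, had differences between -0.08 and 0.07. The probe sets for interleukin-22 itself carried 2 gene symbols and were not members. The 4 ligands measured, Il10, Il19, Il20 and Il24, had differences between -0.11 and -0.01. Il19 differed most, at 5.87, 5.83 and 5.88 against 5.94, 5.99 and 5.97, and its difference of -0.11 ± 0.05 did not pass (limma adjusted p = 0.253).

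The ciliated cell marker mean had the order of the chosen Il22ra1 probe set over the 3 arrays labelled knockout, not over the controls. All 8 ciliated cell markers fell. Their mean read 8.95, 8.55 and 8.43 on knockout 1, 2 and 3. On control 1, 2 and 3 it read 9.63, 9.58 and 9.66. The other Il22ra1 probe set (6.88, 6.61 and 6.65) and the marker Cfap43 (8.78, 8.40 and 8.58) were lowest on knockout 2 instead. Of 5 club cell markers, which mark secretory airway cells, 3 fell, with means of 11.06 to 11.49 against 11.54 to 11.65. Of all lower genes 54.2% ranked the arrays labelled knockout as the chosen Il22ra1 probe set did, and of all genes tested 17% did. The part of other epithelial cells in the Il22ra1 result was not tested. In pooled cell preparations, fewer cells of a type and less RNA per cell cannot be told apart.

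Il18r1 fell less than Il22ra1 and varied less between arrays. Knockout 1, 2 and 3 read 10.40, 10.36 and 10.36, and the controls 10.67, 10.58 and 10.64. The groups did not overlap, and the arrays labelled knockout were close to each other. The difference was -0.26 ± 0.05 (SE, n = 3 per group; limma adjusted p = 0.0253), or 1.19-fold lower. A block on the replicate number gave a limma adjusted p of 0.0544. The call was also lost without knockout 3 (0.0773), control 1 (0.107), control 2 (0.0758) or control 3 (0.104), in the 4 female pools (0.135), and with all probe sets in the fit (0.0531).

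Neither the partner chain of Il18r1 nor its ligand passed. Il18rap, the signalling partner chain and the next gene along the chromosome, read 5.51, 5.89 and 5.77 against 5.61, 5.62 and 5.70, with overlapping groups and a difference of 0.08 ± 0.10 (limma adjusted p = 0.718). The ligand Il18 read 5.34, 5.37 and 5.15 against 5.42, 5.30 and 5.56. Its groups overlapped, and the difference was -0.14 ± 0.09 (limma adjusted p = 0.432). Il18bp, the secreted inhibitor that traps interleukin-18, read 7.55, 7.60 and 7.55 against 7.48, 7.47 and 7.69, a difference of 0.02 ± 0.07.

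The receptor for the interleukin-36 cytokines showed the widest spread of the set over the arrays labelled knockout. Its specific chain Il1rl2, chosen for mention after its values were seen, read 6.72, 7.77 and 6.86 on knockout 1, 2 and 3 and 7.54, 7.60 and 7.54 on the controls. Knockout 1 and 3 stood below every control value and knockout 2 above every one. The difference was -0.44 ± 0.25 over all arrays (limma adjusted p = 0.379) and -0.77 ± 0.06 without knockout 2 (limma adjusted p = 0.00617). That is the array seen to stand apart. Leaving out each array in turn gave -0.77 to -0.245, with a limma adjusted p of 0.00617 to 0.634. Without knockout 2 and control 1, the 2 male pools, the difference was -0.78 ± 0.08 (limma adjusted p = 0.0446). The part of sex in this spread was not tested. The fibroblast marker mean was also highest on knockout 2 of its group, at 8.73, 9.35 and 8.86 against 8.97 to 9.21. Of the 8 markers 6 had that array highest, while Dcn (11.41, 10.63 and 10.48) and Lum (5.21, 4.61 and 4.98) were highest on knockout 1. By limma 0 of the 8 were called (0 also at an unadjusted p under 0.05 by limma). Their part in the Il1rl2 spread was not tested.

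Il1rap, the signalling partner used by the receptors for interleukin-1, interleukin-33 and interleukin-36, read 7.86, 8.17 and 7.85 against 8.12, 8.27 and 8.09. It too was highest of its group on knockout 2, but there within the control range, and below the controls on the other 2 arrays. The difference was -0.20 ± 0.10 (limma adjusted p = 0.311) and -0.31 ± 0.07 without knockout 2 (limma adjusted p = 0.0490). With each array left out in turn, the limma adjusted p ran up to 0.612. Il1rapl1 and Il1rapl2, relatives known for roles at synapses, had low signals and differences of 0.0067 and 0.04.

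The 8 genes grouped as ligands of the interleukin-1 family, with the antagonist Il1f5 among them, lay between 4.03 and 5.56 on average. Of these 0 passed (0 also at an unadjusted p under 0.05 by limma), while 8.49% of all genes tested were called. Il1b, the inflammatory form that is released after cleavage by caspase 1, read 5.63, 5.65 and 5.54 against 5.51, 5.55 and 5.47. Its groups overlapped by 1 value, with a difference of 0.10 ± 0.05 (limma adjusted p = 0.373). Il1a, the membrane-bound alarm form, read 4.06, 4.06 and 3.97 against 4.22, 4.06 and 3.78, a difference of 0.01 ± 0.11. Il1rn, the natural antagonist of the interleukin-1 receptor, read 6.04, 5.90 and 5.91 against 5.84, 5.73 and 5.99, a difference of 0.10 ± 0.08 (limma adjusted p = 0.560). Neither Il1b nor Il1rn passed. The antisense transcript Il1bos differed by -0.07 ± 0.09.

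In the interleukin-17 family the receptor chains stood in both directions without a call. Il17re, which binds the epithelial cytokine interleukin-17C, came closest. Its values were 8.27, 8.24 and 8.16 in the labelled knockout pools and 8.49, 8.38 and 8.44 in the controls, without overlap. The difference was -0.21 ± 0.06 (limma adjusted p = 0.0680). Il17rc, the adjoining gene and a chain of the receptor for interleukin-17A and interleukin-17F, read 8.61, 8.72 and 8.64 against 8.80, 8.76 and 8.79. It was also lower on each array, with a difference of -0.13 ± 0.05 that did not pass (limma adjusted p = 0.213). Il17ra, the chain common to the family, stood the other way, at 7.79, 7.52 and 7.52 against 7.48, 7.29 and 7.44. Its groups did not overlap either, and the difference was 0.21 ± 0.09 (limma adjusted p = 0.253). Il17rd, a further family chain, read 7.18, 7.26 and 7.13 against 7.27, 7.31 and 7.30, a difference of -0.10 ± 0.05.

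The ligands of this family gave no call either. Il17c, the ligand of Il17re, read 6.86, 6.70 and 6.80 against 6.95, 6.89 and 6.94. Its groups did not overlap, and its difference was -0.14 ± 0.06 (limma adjusted p = 0.223). Il17d read 7.41, 7.90 and 7.70 against 7.41, 7.47 and 7.39. Here knockout 1 matched the controls. The difference was 0.25 ± 0.12 over all arrays (limma adjusted p = 0.286) and 0.38 ± 0.08 without knockout 1 (limma adjusted p = 0.0274). Leaving out other single arrays gave a limma adjusted p of up to 0.522. Il17a, the T cell cytokine that gives the family its name, read 6.21, 6.32 and 6.29 against 6.37, 6.31 and 6.38, a difference of -0.08 ± 0.05 (limma adjusted p = 0.464).

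**Figure D2:**
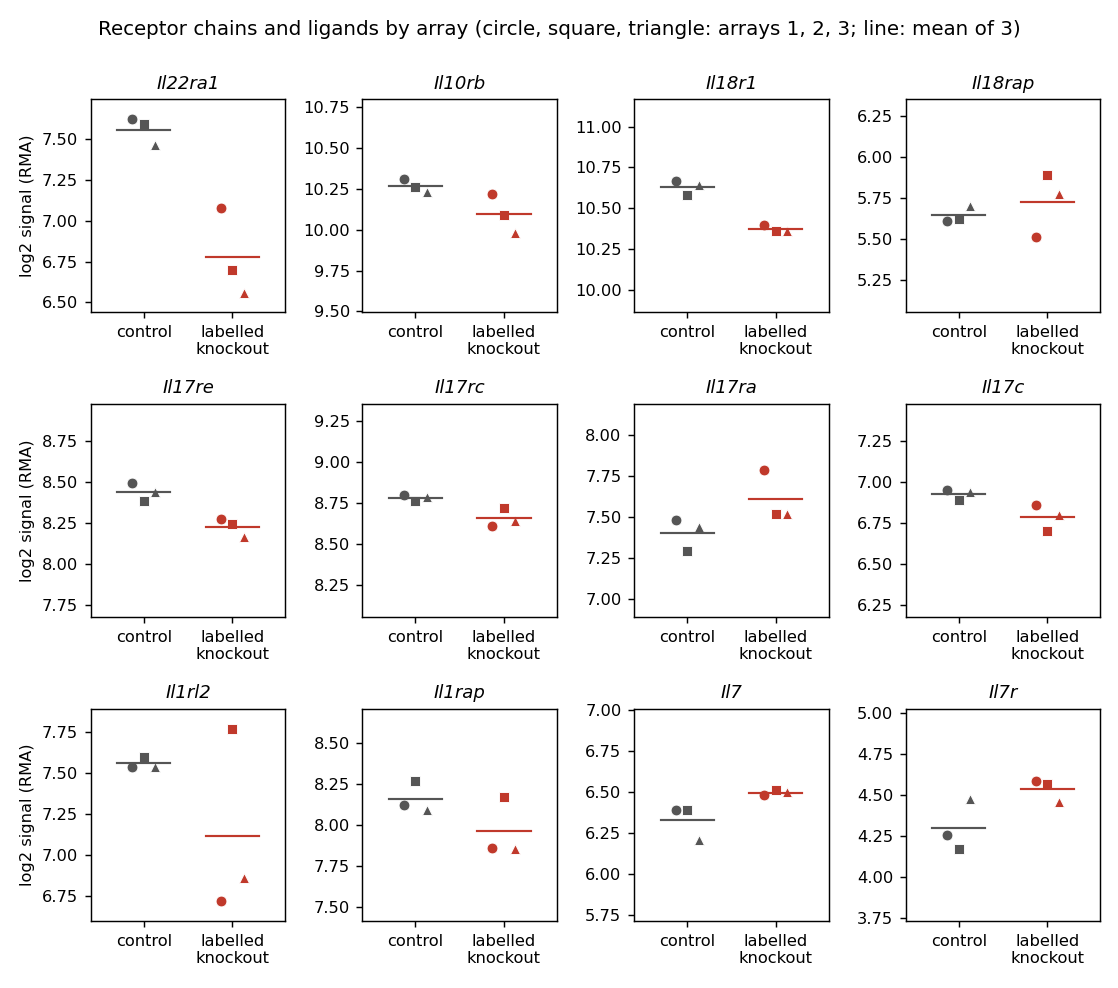
Log2 signal on each array for 12 receptor chains and ligands, controls in grey and arrays labelled knockout in red; marker shapes give the replicate number and lines the mean of 3. Il22ra1 and Il18r1 are lower on all 3 arrays labelled knockout, while Il1rl2 and Il1rap are low on knockout 1 and 3. On knockout 2 Il1rl2 is above every control and Il1rap within the control range.

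Among cytokines that use the common gamma chain, interleukin-7 and its receptor had the smallest p values of the higher members. Il7, a survival factor for lymphocytes made by stroma and epithelia, read 6.48, 6.51 and 6.50 against 6.39, 6.39 and 6.21, without overlap, a difference of 0.17 ± 0.06 (limma adjusted p = 0.184). Il7r, which binds it and also forms the receptor for Tslp, read 4.59, 4.57 and 4.46 against 4.26, 4.17 and 4.48. Its difference was 0.24 ± 0.09 (limma adjusted p = 0.172), and control 3 fell inside the other group. Neither passed, and the mean Il7r signal was low, 4.42, at percentile 9.1 of the genes tested. Il15, a factor for natural killer cells and memory T cells, read 6.24, 6.31 and 6.08 against 6.28, 6.25 and 6.31, and its specific chain Il15ra read 7.62, 7.51 and 7.45 against 7.54, 7.60 and 7.60. Their differences were -0.07 ± 0.07 and -0.05 ± 0.06. Il9r stood higher without overlap, at 6.59, 6.63 and 6.55 against 6.51, 6.53 and 6.42, but by only 0.10 ± 0.05 (limma adjusted p = 0.337).

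Type 2 cytokines, which drive allergic and antiparasite responses, gave no call. The ligands placed in that group, Il3, Il5, Il13, Il25 and Il31, had differences between -0.18 and 0.11. The receptor chains placed with them had differences between -0.12 and 0.06. Of the 9 genes 0 were called (0 also at an unadjusted p under 0.05 by limma). So few genes are not set apart by this from the 8.49% called over all genes. Il25, also named interleukin-17E, was counted here and not with the interleukin-17 ligands, and its chain Il17rb was counted with the interleukin-17 receptors. Il3ra, the interleukin-3 binding chain, read 7.46, 7.52 and 7.50 against 7.50, 7.46 and 7.59, and Il31ra, which pairs with Osmr, read 4.36, 4.22 and 4.38 against 4.44, 4.47 and 4.40. Il31 stood highest on knockout 3, at 6.60, 6.62 and 6.89 against 6.57, 6.60 and 6.62. Il13ra2, the decoy for interleukin-13, had the lowest mean signal of the set, 3.55. Il11 read 5.92, 5.58 and 5.75 against 5.80, 5.68 and 5.74.

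The interleukin-12 family steers T cells and natural killer cells. It gave 0 calls among 8 genes (0 also at an unadjusted p under 0.05 by limma). Over all genes 8.49% were called, so 0 of 8 does not set the family apart. All 4 ligands had differences between -0.11 and -0.0033, and Il27 read 7.22, 7.33 and 7.30 against 7.32, 7.32 and 7.26. Among the receptors Il12rb1 read 7.00, 6.59 and 6.71 against 6.84, 6.69 and 6.63. Il27ra read 6.60, 6.19 and 6.27 against 6.30, 6.32 and 6.24, and Il23r read 4.53, 3.98 and 4.02 against 4.24, 4.24 and 4.28. All 3 were highest on knockout 1. The mean Il23r signal was low, 4.215, at percentile 7.2 of the genes tested. Without knockout 1 the Il23r difference was -0.25 ± 0.06 (limma adjusted p = 0.0356), against -0.08 ± 0.14 with it (0.825). With each array left out in turn, the Il23r difference ranged from -0.2533 to 0.0217 (limma adjusted p up to 0.998). Il27ra and Il23r were picked after their values were seen.

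Knockout 1 also carried more signal of T cells. The mean of 7 T cell markers read 6.57 there, 5.52 and 5.55 on the other 2 arrays labelled knockout and 5.61 to 5.68 on the control arrays. Each of the 7, Cd3e, Cd3d, Cd3g, Cd4, Cd8a, Cd5 and Cd28, was highest on knockout 1. The means of 5 pan-leukocyte markers were 6.48 on knockout 1 and 5.46 to 5.65 on the rest, while those of natural killer cells spanned 4.66 to 4.70 over all arrays. Il2ra, the high-affinity chain for interleukin-2 found on activated and regulatory T cells, stood 0.47 above the next array there, the widest such gap of the 69 genes, at 5.26 against 4.68 to 4.79 on the other 5 arrays. Its difference was 0.16 ± 0.15 with knockout 1 and -0.02 ± 0.06 without it. The part of T cells in these values was not tested. Of the 69 genes 22 were highest on knockout 1, or 31.9%, against 21.6% of all genes tested. Il16, a leukocyte attractant made as a precursor by lymphocytes, was high on knockout 2 instead, at 6.68, 7.34 and 6.65 against 6.84, 7.02 and 6.87.

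**Figure D3:**
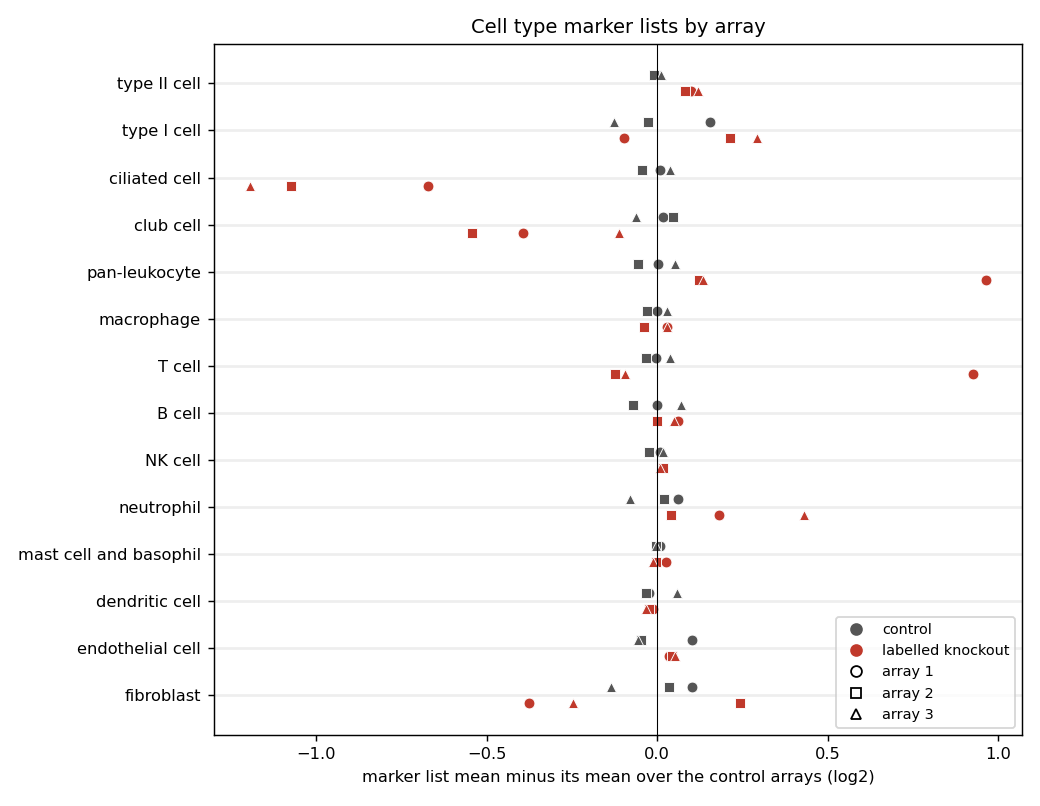
Mean of each cell type marker list on each array minus its mean over the control arrays, in log2; grey marks are control arrays, red marks arrays labelled knockout, and shapes give the replicate number. T cell and pan-leukocyte markers stand apart on knockout 1 alone, and ciliated cell markers are low on all 3 arrays labelled knockout.

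As a rough gauge of signal without a transcript, chosen after the values were seen, 1027 olfactory receptor genes had a median signal of 4.26 and a 95th percentile of 6.09. By that gauge 28 of the 69 interleukin genes, 40.6%, read higher, against 69.4% of all genes tested. They were 15 of 31 receptor chains, 11 of 32 ligands, Il18bp and Il16. Probe sets differ in how strongly they bind, so the gauge gives no detection call for a single gene. The 41 genes below it included every interleukin-1 family ligand and had differences between -0.18 and 0.24. Of the 28 above it 2 were called, 7.14%, against 11.7% of all genes above it, and the groups did not overlap in 10, or 35.7%, against 34.3%.

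In the RefSeq gene order 17 pairs of members were adjacent, and in 10 of them both differences had the same sign. Il17re and Il17rc were such a pair, and so were Il19 and Il20, whereas Il18r1 and Il18rap had opposite signs.

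Genes that act with or after these receptors were taken from 6 lists of 80 measured genes. Of these 5 rose and 1 fell by limma, 6.25% and 1.25%, against the 3.36% and 5.13% of all genes. Their median difference was 0.04. Without any 1 control array, or in the 4 female pools, Lcn2 was the 1 gene called by limma.

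Among 8 partner chains and ligands whose symbols do not start with Il, 1 rose. Osmr, which forms the interleukin-31 receptor with Il31ra and the oncostatin M receptor with another chain, read 10.42, 10.72 and 10.42 against 10.15, 10.09 and 10.05. The groups did not overlap, and the difference was 0.42 ± 0.09 (limma adjusted p = 0.0341). That call was lost without knockout 3 (0.0601), control 1 (0.098), control 2 (0.130) or control 3 (0.137). Csf2rb, the beta chain that the receptors for interleukin-3 and interleukin-5 share, read 6.71, 6.58 and 6.61 against 6.42, 6.14 and 6.40, a difference of 0.31 ± 0.09 that did not pass (limma adjusted p = 0.0781). Crlf2, which pairs with Il7r, differed by 0.12 ± 0.06.

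Of 14 Janus kinases, STAT factors and receptor-bound adaptors, 1 rose. The phosphatase Ptpn11, an adaptor of cytokine and growth factor receptors, read 9.77, 9.74 and 9.76 against 9.55, 9.46 and 9.46, a difference of 0.27 ± 0.05 (limma adjusted p = 0.0236; 0.0507 under a replicate block). Its call was lost without knockout 3 (0.0706), control 1 (0.0579), control 2 (0.114) or control 3 (0.102). Jak2 stood at 0.20 ± 0.06 (limma adjusted p = 0.0848). Stat4, the factor of interleukin-12 signalling, read 5.62, 5.24 and 5.03 against 5.95, 5.87 and 5.68. Its difference was -0.54 ± 0.15 (limma adjusted p = 0.0810, and 0.0203 under a replicate block). Without knockout 1 it was -0.70 ± 0.10 (limma adjusted p = 0.00761). Leaving out other single arrays gave a limma adjusted p of up to 0.235.

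Of 12 SOCS and PIAS genes, which restrain this pathway, Socs6 was the 1 called. A positive difference was seen in 9 of the 12, against 10355 of the 19938 genes tested. Socs6 read 8.29, 8.24 and 8.31 against 7.96, 8.01 and 7.98, with groups well apart. The difference was 0.30 ± 0.05 (limma adjusted p = 0.0144), but did not pass when control 1 was left out (0.0709), nor without control 2 (0.0657) or control 3 (0.0734), nor with the mean of its 3 probe sets (0.0919). Socs3, the inhibitor induced through Stat3, read 8.41, 8.32 and 8.00 against 7.92, 8.00 and 7.98. Its difference was 0.28 ± 0.11 (limma adjusted p = 0.181, 0.0264 without knockout 3, and up to 0.387 without another single array). Socs4 differed by 0.23 ± 0.08.

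The interleukin-1 pathway adaptors gave 1 lower gene among 15. Irak1bp1, a protein that binds the kinase Irak1, read 7.76, 7.41 and 7.32 against 8.16, 8.07 and 7.91, a difference of -0.55 ± 0.12 (limma adjusted p = 0.0402), and its order over knockout 1, 2 and 3, though not over the controls, was that of the ciliated cell marker mean. Its call was lost without knockout 2 (adjusted p = 0.0779), knockout 3 (0.118), control 1 (0.142), control 2 (0.147) or control 3 (0.0908). Myd88, the adaptor of the family, stood at 0.18 ± 0.05 and the ubiquitin ligase Peli1 at -0.26 ± 0.08, and neither passed (limma adjusted p = 0.100 and 0.107). Of 16 genes of the inflammasome and of interleukin-1 processing 0 passed (0 also at an unadjusted p under 0.05 by limma). Over all genes tested 8.49% were called. The differences of the 16 genes lay between -0.23 and 0.14, with Naip5 at 0.13 ± 0.06 and Txnip at -0.11 ± 0.07.

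Of 15 interleukin-17 adaptor and target genes 2 rose. The iron-binding protein Lcn2 read 12.69, 12.89 and 12.89 against 11.90, 11.92 and 11.92, a difference of 0.91 ± 0.07 (limma adjusted p = 0.0032). This call was kept whichever array was left out. The neutrophil chemokine Cxcl5 read 6.16, 5.85 and 5.12 against 4.65, 4.67 and 4.55. All 3 values lay above the controls, although they spread widely, and the difference was 1.09 ± 0.24 (limma adjusted p = 0.0377). The call was lost without knockout 2 (0.0726), control 1 (0.120), control 2 (0.124) or control 3 (0.144). It was also lost with robust eBayes (0.052) and with all probe sets in the fit (0.0824). The mean Cxcl5 signal of 5.17 lay below the olfactory gauge of 6.09. A fit without the lowest 30% of genes left Cxcl5 out. Ccl20, a chemokine for dendritic cells and lymphocytes, read 7.72, 6.96 and 7.25 against 6.53, 6.82 and 6.75. Its difference was 0.61 ± 0.19 (limma adjusted p = 0.103, 0.0300 without knockout 2, and up to 0.278 without another single array). Usp25, a negative regulator of interleukin-17 signalling, differed by 0.16 ± 0.06. Lcn2, Cxcl5 and Ccl20 are also targets of other inflammatory signals.

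**Figure D4:**
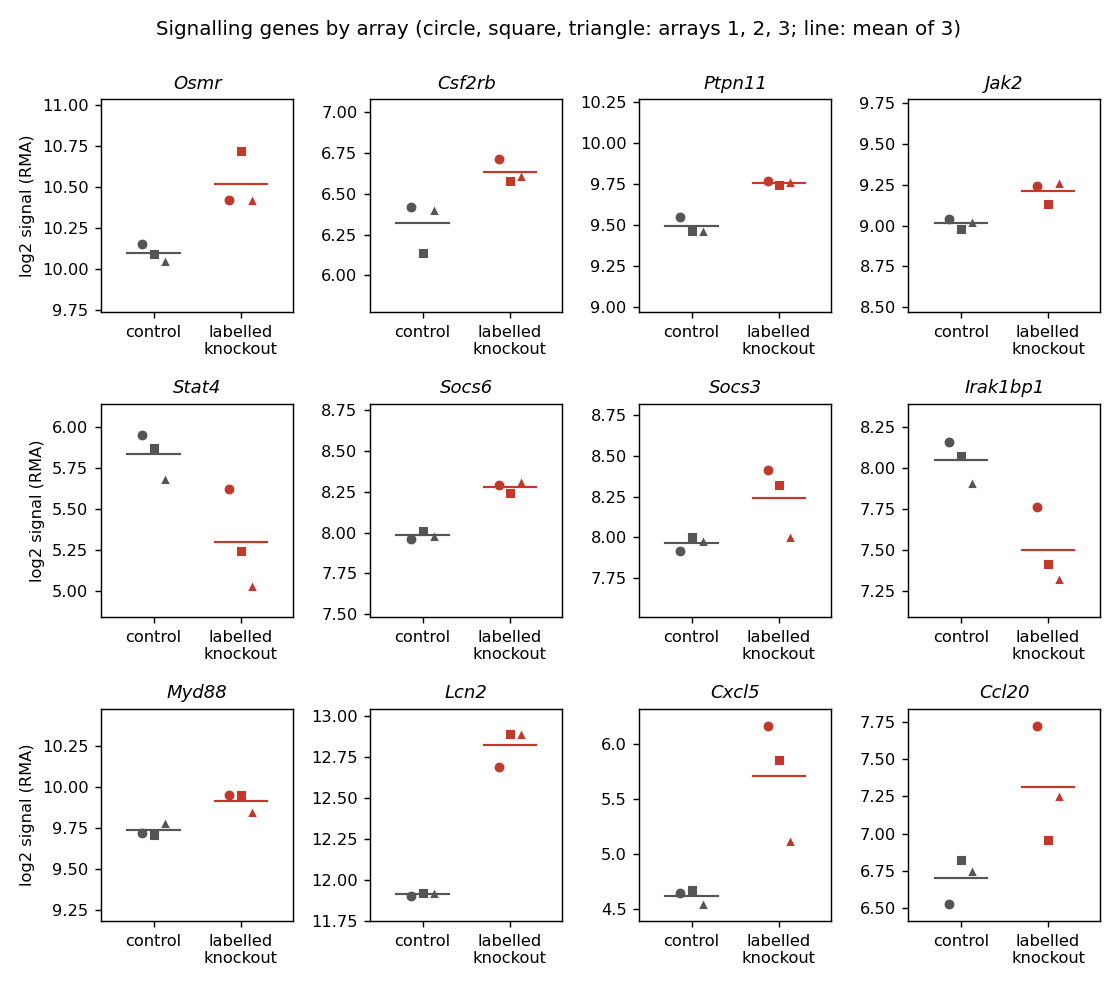
Log2 signal on each array for 12 partner, adaptor, inhibitor and target genes, controls in grey and arrays labelled knockout in red; marker shapes give the replicate number and lines the mean of 3. Lcn2, Socs6 and Ptpn11 are well apart between the groups, while Cxcl5 and Socs3 spread widely over the arrays labelled knockout.

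The spread of the interleukin genes followed that of the whole table. Over the 69 genes the median SD was 0.0954 among labelled knockout pools and 0.0586 among controls, against 0.0907 and 0.0624 over all genes. The SD was larger on the arrays labelled knockout in 47 of the 69 genes, 68.1%, and in 68.2% of all genes. The 10 type II cell markers had list means of 12.43 to 12.47 in the labelled knockout pools and 12.34 to 12.36 in the controls. Both were near the top of the array scale of 13.43. Of the 10 markers 8 had a positive difference. By limma 2 were called higher, Lamp3 (0.32 ± 0.07) and Lpcat1 (0.22 ± 0.05), and 0 lower.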

How the data were processed

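RNA of 6 pools was measured on Affymetrix arrays, 3 labelled knockout and 3 control by the array titles. Values are log2 signals as deposited. Per the submitters' processing notes, the authors used Affymetrix Expression Console 1.1 and RMA. RMA evens out the arrays, so a shift shared by most genes is lost. No genome build was given in the sources used here.

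Of 35556 probe sets 21789 had 1 gene symbol. The probe set with the highest mean stood for each gene, giving 19938 genes, all fitted with limma 3.58.1 (R 4.3.3; lmFit, then eBayes; two-sided; Benjamini-Hochberg adjustment over all genes, threshold 0.05). Intervals at 95% use limma's moderated standard error. The fit was tested on simulated data. The number of arrays limits precision, and nothing says that mice were shared or not between pools of a group.

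The members, gene lists, naming rule and alternatives were chosen with earlier results of these data known. Named were called members, the 8 uncalled in each direction with the smallest p, the 10 highest and 4 lowest in signal, the highest of each role, called list genes and 2 uncalled per list. Further genes, among them Il1rl2, Il23r, Il2ra, Il27ra, Il18, Il18rap, Il17a and Il15, were picked once their values were known. Alternatives changed the block, the normalization, the variance model, the filter and the arrays used.

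Arrays that share a replicate number deviated together from their group means (correlations 0.192, 0.103 and 0.111, above the limit of 0.1), which met the rule for pairs. This rests on the values, since no label explains the numbers. All calls come from the fit without a block, and the value under a replicate block is given wherever it changes a call.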

Additional observations from a re-analysis of the deposited data

How the results depend on the processing

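The precision of every value is limited by 3 arrays a group. The count of lower interleukin genes was 2 and became 1 with the replicate number as a block or with all probe sets in the fit, where Il18r1 lost its call in both, and 1 without the 2 pools that read as male, where Il1rl2 was the gene called. Leaving out 1 array gave 0 to 4 lower and 0 to 1 higher genes. It was 0 lower without control 1, control 2 or control 3, where calls over all genes also dropped, to 301 to 389 lower. With the first number of the titles, unexplained in the labels, as a random block, 2 genes were higher (Il7r and Il17ra) and 3 lower (Il17re besides Il22ra1 and Il18r1), and the estimated correlation was negative, at -0.513. No first number is common to both groups. The list genes, 5 higher and 1 lower, became 14 higher and 4 lower under that block. With the replicate number as a block 2 were lower, and with array weights 2 were lower. Robust eBayes left out Cxcl5, which the fit without the lowest 30% of genes did not test. With all probe sets in the fit 3 were higher and 0 lower, where Osmr, Cxcl5 and Irak1bp1 lost their calls, and without the 2 male pools 1 was higher and 0 lower. Leaving out 1 array gave 1 to 6 higher and 0 to 2 lower. Apart from the changes given here and beside the results, the replicate block changed no call of a named gene. Centring the arrays on their medians moved the median of all genes to 0.0333.

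No called gene changed direction under any alternative run. Genes with differences near 0 did. Centring gave 0.0067 for Il3ra, 0.0133 for Il27 and 0.01 for Il16. Repeated quantile normalization gave 0.0144 for Il3ra and 0.0117 for Il27, the random block -0.0271 for Il1a and 0.0212 for Il16, and array weights -0.0156 for Il1a. Without the male pools Il18bp read -0.03, Il23r 0.015 and Il18rap -0.02. Leaving out 1 array gave -0.0183 to 0.0917 for Il18bp, -0.0517 to 0.0133 for Il3ra, -0.025 to 0.11 for Il1rapl2, -0.11 to 0.11 for Il1a, -0.04 to 0.015 for Il27, -0.07 to 0.135 for Il12rb1, -0.075 to 0.095 for Il11, -0.245 to 0.1 for Il16, -0.1233 to 0.0217 for Il1bos, -0.2533 to 0.0217 for Il23r, -0.0217 to 0.2683 for Il2ra, -0.0567 to 0.1483 for Il27ra and -0.0033 to 0.1867 for Il18rap. The cause of these changes was not tested.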
